A study of Mus musculus with 2 samples.

Results

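A set of 10 genes of the cardiac sarcomere, among the 29453 genes in the count tables, was followed through droplet-based scRNA-Seq of *Gata1*- chimeric mouse embryos. They were taken by name: the myosin light chain genes *Myl7*, *Myl4* and *Myl3*, the troponin genes *Tnnt2*, *Tnnc1* and *Tnni3*, the actin genes *Actc1* and *Acta1*, the titin gene *Ttn* and the myosin heavy chain gene *Myh6*. The tdTom+ library held cells that descended from *Gata1*- mouse embryonic stem cells, 1 clone of a male line that expresses tdTomato throughout, in which a 38-bp frameshift mutation lies in exon 4 of the X-linked gene *Gata1*. These cells had been injected into wildtype C57BL/6 blastocysts collected at E3.5, and the tdTom- library held the host's wildtype cells of the same embryos. A pool of 6 chimeric embryos was sorted by tdTomato, and the labels give E8.5 for tdTom+ and E8.6 for tdTom- cells although both came from that pool. Each fraction was a single library, so no difference between fractions had a replicate check, cell origin and genotype cannot be told apart, and all intervals cover counting error only.

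The sarcomere is the contractile unit of striated muscle, in which thick filaments of myosin heavy and light chains pull on thin filaments of actin. Calcium binding to troponin C moves the troponin complex and lets the filaments interact, and titin spans the unit as a molecular spring. In the mouse the first cardiomyocytes of the cardiac crescent and the linear heart tube make these proteins before the chambers form, in a mixture of genes later restricted to atria, ventricles, smooth or skeletal muscle.

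In GRCm38 the genes lay on 7 chromosomes, with spans from 2.146 kb for *Myl7* (chromosome 11, 5896637 to 5898782, minus strand) to 278.568 kb for *Ttn* (chromosome 2, 76703980 to 76982547, minus strand). On chromosome 11 lay also *Myl4* (104550663 to 104595753, plus), and on chromosome 2 *Actc1* (114047282 to 114053548, minus). Chromosome 14 held *Tnnc1* (31208312 to 31211729, plus) and *Myh6* (54941921 to 54966927, minus). The other 4 genes were *Myl3* on chromosome 9 (110741861 to 110769798, plus), *Tnnt2* on chromosome 1 (135836354 to 135852260, plus), *Tnni3* on chromosome 7 (4518305 to 4524229, minus) and *Acta1* on chromosome 8 (123891769 to 123894751, minus). On the opposite strand, *Myl3* overlapped *Pth1r*, *Tnnc1* overlapped *Nisch* and *Myl4* overlapped 4 genes, and *Actc1* (*A530058N18Rik*), *Acta1* (*Gm20388*), *Ttn* (*Gm13938*) and *Myh6* (*Gm49130*) each overlapped 1. On the same strand *Tnni3* overlapped *Dnaaf3* and *Myh6* overlapped *Mir208a*. *Myl7* and *Tnnt2* overlapped no annotated gene. Promoter sequences from RefSeq on GRCm38.p6 were matched for 10 of 10 genes. The 4 below are shown because they hold the motifs that the genes shared or differed in, and because no annotated exon reached into these 250 bases upstream of the start. They are written 5′ to 3′ on the gene's strand, with matches on either strand in capitals. The motifs searched were the CArG box, the MEF2 box, MCAT with the letters CATTCC, the TATA box with the letters TATAAA, and the GATA motif. The GATA motif was AGATAA or TGATAA, with A or G as the last letter, and in these 4 promoters no match overlapped another motif's.
Myl7: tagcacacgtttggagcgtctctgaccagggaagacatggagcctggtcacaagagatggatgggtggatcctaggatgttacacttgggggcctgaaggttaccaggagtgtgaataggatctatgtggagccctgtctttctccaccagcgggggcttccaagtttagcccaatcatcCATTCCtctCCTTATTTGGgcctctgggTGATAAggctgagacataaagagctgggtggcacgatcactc
Tnnt2: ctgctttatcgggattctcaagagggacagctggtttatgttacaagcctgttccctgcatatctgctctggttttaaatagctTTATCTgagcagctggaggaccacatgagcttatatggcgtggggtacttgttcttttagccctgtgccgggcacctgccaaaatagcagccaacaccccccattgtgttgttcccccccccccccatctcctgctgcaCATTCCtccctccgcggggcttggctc
Acta1: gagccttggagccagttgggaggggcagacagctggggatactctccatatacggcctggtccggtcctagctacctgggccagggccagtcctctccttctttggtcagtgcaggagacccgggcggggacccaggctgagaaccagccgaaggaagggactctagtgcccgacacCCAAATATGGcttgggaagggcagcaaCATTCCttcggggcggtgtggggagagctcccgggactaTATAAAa
Ttn: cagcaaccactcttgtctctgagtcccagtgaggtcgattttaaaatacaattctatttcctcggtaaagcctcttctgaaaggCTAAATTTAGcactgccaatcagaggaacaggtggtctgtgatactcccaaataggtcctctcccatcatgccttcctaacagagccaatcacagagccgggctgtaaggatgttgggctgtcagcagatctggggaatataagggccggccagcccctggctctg
The *Myl7* stretch is chr11:5898783-5899032 on the minus strand, that of *Tnnt2* is chr1:135836084-135836333 on the plus strand, that of *Acta1* is chr8:123894776-123895025 on the minus strand and that of *Ttn* is chr2:76982548-76982797 on the minus strand. A CArG box, the sequence bound by serum response factor, was found in 4 of the 10 genes, against 1.40% of 27018 promoters of the same length. Its letters were CCTTATTTGG from -61 to -52 in *Myl7*, CCTTTTATGG from -85 to -76 in *Myl3*, CCAAATAAGG from -47 to -38 in *Actc1* and CCAAATATGG from -73 to -64 in *Acta1*, relative to the RefSeq start. MCAT was found in 6 of 10 genes against 12.6% of promoters. GATA was found in 3, namely *Myl7*, *Tnnt2* and *Myh6*, against 27.1%, and the MEF2 box in *Ttn* alone against 3.01%. TATAAA was found in *Acta1*, against 13.0% of promoters. A match describes these letters only, and no match says only that the letters are not in the window.

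The tdTom+ library held 8981 barcodes, with 167940767 spliced and 25275340 unspliced UMIs, and the tdTom- library 9252 barcodes, with 157174026 and 24368837. A total of 18 barcodes occurred in both. After called doublets were left out, 8565 and 8682 cells remained, in 36 clusters made without the 10 genes and without the wider sarcomere list. Spliced *Gata1* was 6.73 CPM (counts per 1000000 spliced UMIs of the same cells) in the tdTom+ library and 29.3 CPM in the other. Spliced UMIs of the 10 genes were 0.177% and 0.134% of each library.

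A single cluster carried most of these UMIs. It held 211 tdTom+ cells, 2.46% of the kept cells (exact binomial 95% interval 2.15 to 2.81), and 148 tdTom- cells, 1.70% (1.44 to 2.00). It was called cardiomyocyte-like because 11 of 12 cardiomyocyte markers in tdTom+ and 12 of 12 in tdTom- cells were raised, none of them among the 10 genes. Of these markers, *Smyd1*, *Csrp3*, *Myl2*, *Actn2* and *Mybpc3* were in the wider sarcomere list. With 2.35% of the barcodes the cluster held 74.4% of the UMIs of the 10 genes in tdTom+, and with 1.60% of the barcodes 78.0% in tdTom- cells. Skeletal muscle markers were at 0 UMIs for 4 of 5 genes in tdTom+ and 5 of 5 in tdTom- cells of the cluster. Smooth muscle markers were raised for 3 of 4 genes and summed to 8721 and 11099 CPM, mostly from the actin gene *Acta2*, which the early heart also makes. Erythroid markers summed to 305 CPM in its tdTom+ and 2687 CPM in its tdTom- cells, and their part in the results below was not tested. Endothelial markers summed to 18.3 and 21.5 CPM, and neural markers to at most 20.6 CPM there.

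Besides it, 2 clusters exceeded 1000 CPM for the sum of the 10 genes, and that level was the reason to describe them. The first was led by *Sfrp5*, *Wnt2*, *Mab21l2*, *Csrp3* and *Tbx5*, with 194 tdTom+ and 153 tdTom- cells. It had 8 of 12 cardiomyocyte markers raised in both fractions, and 4 of 7 splanchnic mesoderm markers in tdTom+ and 5 of 7 in tdTom- cells, and stayed unnamed. Smooth muscle markers were raised there for 3 of 4 genes in both fractions. The second was led by *Lefty2* and also by *Isl1* and *Nkx2-5*, with 199 tdTom+ and 95 tdTom- cells. It was splanchnic mesoderm-like by 3 of 7 markers in tdTom+ and 4 of 7 in tdTom- cells, with 3 of 12 cardiomyocyte markers raised as well. *Foxf1* and *Osr1*, also splanchnic mesoderm markers, lay below the rest of the cells in both fractions. Smooth muscle markers were raised for 3 of 4 genes in tdTom+ and 2 of 4 in tdTom- cells of this cluster. The 2 clusters are called the *Sfrp5* cluster and the *Lefty2* cluster.

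**Figure D1:**
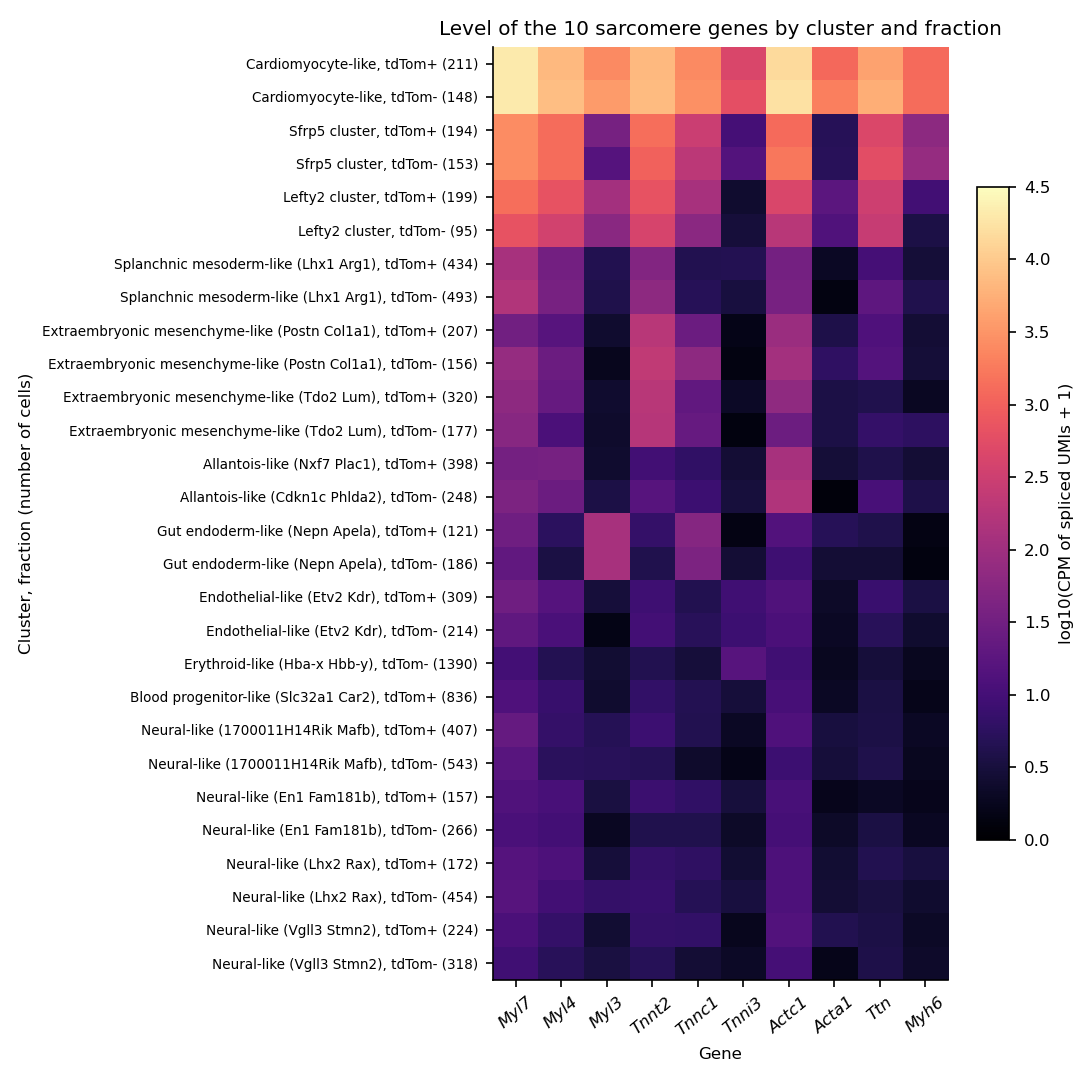
Level of each sarcomere gene (columns) in the clusters (rows, tdTom+ and tdTom- apart, cells in parentheses) as log10 of CPM + 1 of spliced UMIs, by colour. All 10 genes are brightest in the cardiomyocyte-like rows, the *Sfrp5* and *Lefty2* clusters hold far less *Tnni3* and *Acta1*, at 1.53 to 16.9 CPM, and single genes stand out elsewhere, such as *Myl3* in a gut endoderm-like cluster.

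In cardiomyocyte-like cells the sarcomere genes were expressed together and at close levels in both fractions. They made up 6.06% of all spliced UMIs in tdTom+ and 6.76% in tdTom- cells. The levels below are CPM of summed spliced UMIs in each library, and since these are counts of molecules tagged at an end of the transcript, they were not divided by length and are compared within a gene only.

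Among the myosin light chains, *Myl7*, the regulatory light chain of the atria in the later heart, was at 20500 (tdTom+) and 20484 CPM (tdTom-). Per cell it ran from 6558 over a median of 20146 to 40029 CPM in tdTom+ and from 3684 over 20451 to 40867 CPM in tdTom- cells, so that every cell held it and the fractions overlapped throughout. *Myl4*, the essential light chain of atria and of fetal muscle, was at 7003 and 7698 CPM. *Myl3*, the essential light chain of ventricles and slow muscle, was at 2512 and 3557 CPM, a log2 fold of tdTom+ over tdTom- of -0.50 (-0.54 to -0.46). Its cell values spread from 0 over a median of 2389 to 6580 CPM in tdTom+ and from 0 over 3118 to 10947 CPM in tdTom- cells, and overlapped over most of their range.

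Among the thin filament genes, *Tnnt2*, cardiac troponin T, which ties the complex to tropomyosin, was at 6825 and 7126 CPM. *Tnnc1*, the calcium-binding troponin C of cardiac and slow muscle, was at 2492 and 2830 CPM. *Tnni3*, the inhibitory troponin of the mature heart, was at 448 and 605 CPM, and its cell values ran from 0 over a median of 257 to 2583 CPM in tdTom+ and from 0 over 426 to 3492 CPM in tdTom- cells. The log2 folds of tdTom+ over tdTom- for the 3 troponins, in this order, were -0.06 (-0.09 to -0.03), -0.18 (-0.23 to -0.14) and -0.43 (-0.54 to -0.33).

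*Actc1*, cardiac alpha-actin, was at 14146 (tdTom+) and 16601 CPM (tdTom-), a log2 fold of -0.23 (-0.25 to -0.21). *Acta1*, skeletal alpha-actin, which the fetal heart also makes, was at 1219 and 1945 CPM, and its log2 fold of -0.67 (-0.73 to -0.62) was the farthest from 0 among the 10 genes. Its cells ran from 0 over a median of 932 to 8026 CPM in tdTom+ and from 0 over 1403 to 9033 CPM in tdTom- cells, so the fractions overlapped here too. The coding sequences of these actins are closely alike, as are those of *Myh6* and *Myh7*, and how the counting split their reads was not tested.

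*Ttn* was at 4211 and 5446 CPM, a log2 fold of -0.37 (-0.40 to -0.34). *Myh6*, the alpha heavy chain that gives the fast myosin of the atria and of the adult mouse ventricle, was at 1263 and 1331 CPM, a log2 fold of -0.08 (-0.14 to -0.01). In *Myl7* the log2 fold was 0.00 (-0.02 to 0.02) and in *Myl4* -0.14 (-0.16 to -0.11).

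Of the 10 genes, 9 had a log2 fold below 0 and 1 above, with a median of -0.21, while the median over all 5798 genes with at least 100 UMIs in the cluster was 0.00. None of the 10 was 2-fold lower or higher in tdTom+ cells, and of all 5798 genes 0.621% were at least 2-fold lower and 0.224% at least 2-fold higher. Median spliced UMIs per cell were 16908 and 15892, and median mitochondrial shares 2.30% and 2.41%, in tdTom+ and tdTom- cells of the cluster. With 1 library per fraction the spread between embryos is unknown, and whether these folds exceed it cannot be said.

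**Figure D2:**
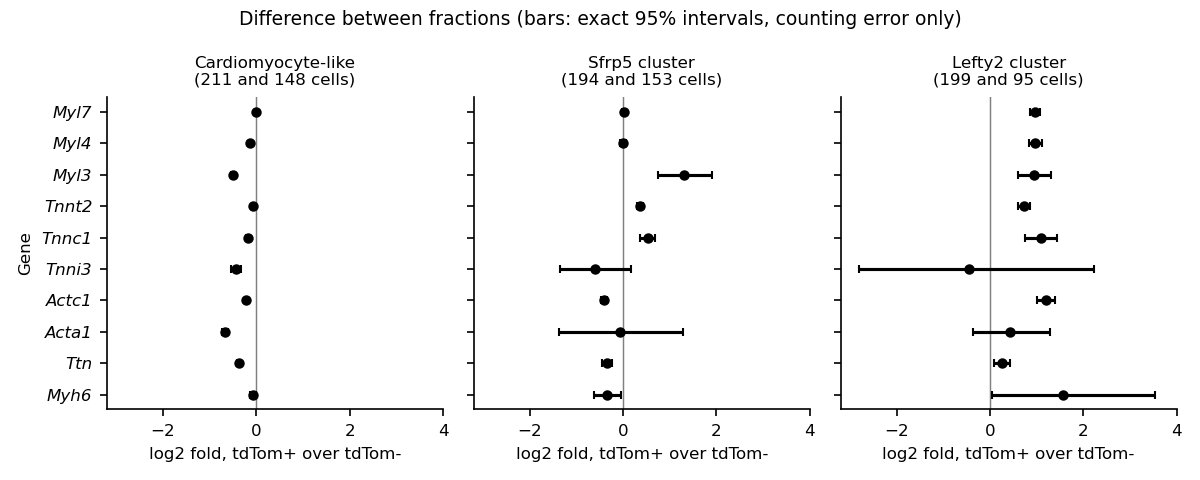
Log2 fold of tdTom+ over tdTom- for each sarcomere gene (rows) in the 3 clusters (panels), with exact conditional 95% intervals as bars, which cover counting error only. Points lie between -0.67 and 0.00 in cardiomyocyte-like cells, and 9 of 10 lie right of 0 in the *Lefty2* cluster.

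The wider lists gave the setting of these folds. Of 38 other sarcomere genes, 32 had 100 UMIs, none was past 2-fold in either direction, and the median log2 fold was -0.25. The values farthest from 0 were *Tnnt1*, slow skeletal troponin T, at -0.90 (75.2 and 140 CPM), *Actg2*, enteric smooth muscle actin, at -0.53 (20.2 and 29.3 CPM), and *Myh7*, the beta heavy chain, at -0.52 (718 and 1028 CPM). Of 12 calcium handling genes, 7 were measured, none was past 2-fold and the median was -0.05. There *Trdn*, triadin of the calcium release complex, was at -0.90 (38.3 and 71.4 CPM), the sodium-calcium exchanger gene *Slc8a1* at -0.24 and the calcium pump gene *Atp2a2* at -0.22. Of 17 cardiac transcription factor genes, 16 were measured, none was past 2-fold and the median was 0.08. These factors lay on both sides of 0. *Isl1*, a factor of cardiac progenitors, was at 0.87 (27.1 and 14.9 CPM), *Gata6* at 0.57 (209 and 140 CPM) and *Hand2* at 0.36 (77.4 and 60.2 CPM). Its relative *Hand1* was at -0.36 (81.8 and 105 CPM).

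Co-expression was read in cells thinned to 5000 spliced UMIs, so that depth was equal. At least 8 of the 10 genes had a UMI in 199 of 206 tdTom+ cardiomyocyte-like cells, 96.6% (93.1 to 98.6), while 142 of 144 cells did so in the tdTom- library, 98.6% (95.1 to 99.8). Without thinning the shares were 98.6% and 99.3%. All 10 were found together in 100 tdTom+ cells, 48.5% (41.5 to 55.6), and in 82 tdTom- cells, 56.9% (48.4 to 65.2). The cells that lacked a gene lacked mainly *Tnni3* or *Acta1*. *Myl7*, *Myl4*, *Tnnt2*, *Actc1* and *Ttn* were found in 100% of thinned cells of both fractions, whereas *Tnni3* was found in 62.6% and 66.0% and *Acta1* in 77.2% and 86.1% of tdTom+ and tdTom- cells.

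Elsewhere such cells were few. In the *Sfrp5* cluster 11 of 191 tdTom+ and 9 of 147 tdTom- cells held at least 8 of the genes, and in the *Lefty2* cluster 13 of 196 and 1 of 92 did. Without thinning the shares were 13.4% and 11.8% in the *Sfrp5* cluster and 13.1% and 1.05% in the *Lefty2* cluster. Among all other kept cells the counts were 0 of 7822 tdTom+ cells, which allows a share of up to 0.0471% (upper end of the exact interval), and 2 of 7929 tdTom- cells, 1 in a splanchnic mesoderm-like and 1 in an allantois-like cluster. Without thinning, 0.0377% and 0.0965% of the other kept cells held 8. A further 20 tdTom+ and 14 tdTom- barcodes of this kind were among those left out as doublets. In neural-like cells, which should lack these genes, no cell of 940 held 8, which allows up to 0.392%, nor any of 1527, which allows up to 0.241%. None of the genes was found in 76.7% and 82.0% of these cells, whose median depth before thinning is close to that of the cardiomyocyte-like cells.

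**Figure D3:**
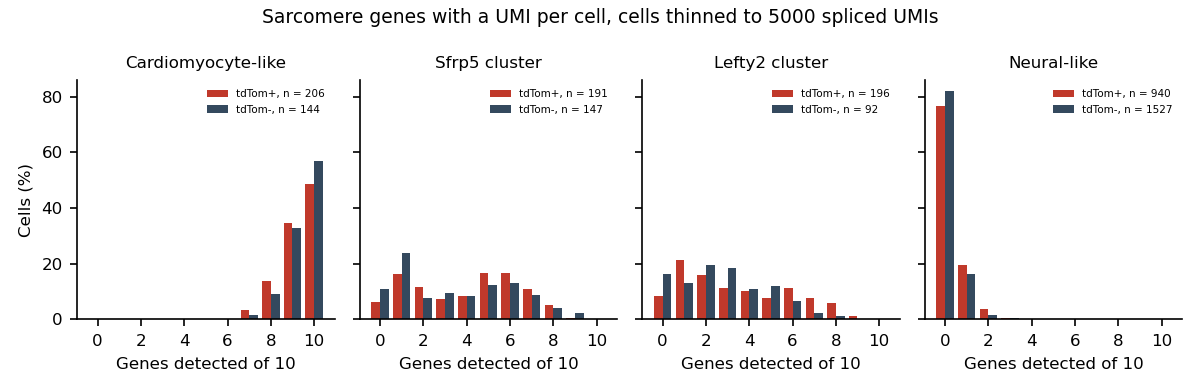
Number of the 10 sarcomere genes with a spliced UMI (x axis) against the share of cells in percent (y axis), tdTom+ and tdTom- as bars side by side, after thinning each cell to 5000 spliced UMIs (n of cells in the key). Cardiomyocyte-like cells pile up at 9 and 10, neural-like cells at 0, and the *Sfrp5* and *Lefty2* clusters spread in between.

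Within cardiomyocyte-like cells the genes varied together to different degrees. Over the 45 pairs, Pearson's r across thinned cells had a median of 0.41 in 206 tdTom+ and 0.40 in 144 tdTom- cells, a description across cells that share a library. The light chain pair *Myl7* and *Myl4* stood highest, at 0.71 and 0.75. The lowest in tdTom- cells was *Acta1* with *Myh6*, at -0.05, a pair that stood at 0.26 in tdTom+ cells. In tdTom+ cells the lowest was *Myl7* with *Ttn*, at 0.18, against 0.15 in tdTom- cells. Genes with few UMIs per thinned cell carry more counting noise, and its part in these r values was not tested.

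Over the 59 groups of at least 50 cells given by cluster and fraction, the genes with the pattern most like the mean of the 10 (Pearson's r on log2(CPM + 10), among 10939 genes with 500 UMIs, with libraries shared between groups) were *Slc8a1* (0.98), *Gm45123*, *Smyd1*, *Mybpc3*, *Sphkap*, *Fbxl22*, *Ldb3*, *Ankrd1*, *Pgam2* and *Unc45b* (0.96). Of these, *Smyd1*, *Mybpc3*, *Ldb3*, *Ankrd1* and *Unc45b* were in the wider sarcomere list. *Slc8a1*, *Smyd1* and *Mybpc3* were also among the cardiomyocyte markers used to name the cardiomyocyte-like cluster. *Fbxl22* was at 851 (tdTom+) and 1060 CPM (tdTom-) in cardiomyocyte-like cells, and *Pgam2*, muscle phosphoglycerate mutase, at 408 and 424 CPM. The single gene most like each of the 10 was *Myl4* for *Myl7* and for *Actc1*, *Myl7* for *Myl4*, *Myh7* for *Myl3*, *Tnni1* for *Tnnt2*, *Ankrd1* for *Tnnc1*, *Actn2* for *Tnni3*, *Smpx* for *Acta1*, *Unc45b* for *Ttn* and *Ldb3* for *Myh6*, with r from 0.94 to 0.99. Among pairs of the 10 genes, r ran from 0.68 for *Tnnt2* and *Acta1* to 0.98 for *Myl7* and *Myl4*.

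Sub-clusters of the cardiomyocyte-like cells differed in which sarcomere genes they held. They were grouped, after the data had been seen, by which chamber list summed highest. The ventricular list (*Irx4*, *Hey2*, *Myl2*, *Hand1*, *Nppa*) gave 113 tdTom+ and 86 tdTom- cells, the inflow list (*Nr2f1*, *Nr2f2*, *Tbx5*, *Vsnl1*, *Kcna5*, *Wnt2*, *Osr1*, *Tbx18*) 44 and 27 cells, and the outflow list (*Isl1*, *Tdgf1*, *Bmp4*, *Sema3c*, *Rgs5*, *Hand2*) 54 and 35 cells. The groups take the name of a list and no anatomical position was measured. Fractions were mixed unevenly, since 1 ventricular-list sub-cluster, led by *Nppa*, *Cdkn1c* and *Grb10*, held 3 tdTom+ and 41 tdTom- cells, another, led by *Cck*, held 49 and 10, and the third, led by the globin genes *Hbb-y* and *Hba-x*, held 61 and 35. *Nppa*, the atrial natriuretic peptide gene, was at 221 CPM in all tdTom+ and 946 CPM in all tdTom- cardiomyocyte-like cells, a log2 fold of -2.10 (-2.22 to -1.98), and was the ventricular list's single gene past 2-fold.

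The outflow-list cells had little *Tnni3* and *Myh6*. In outflow-list cells *Tnni3* was at 99.8 (tdTom+) and 61.1 CPM (tdTom-), against 584 and 740 CPM in the ventricular-list cells, log2 folds of -2.55 (-2.89 to -2.23) and -3.60 (-4.15 to -3.10). *Myh6* was at 476 and 461 CPM against 1421 and 1508 CPM, log2 folds of -1.58 (-1.73 to -1.43) and -1.71 (-1.91 to -1.52). *Actc1* lay lower there as well, with log2 folds of -0.88 and -0.75. In contrast, *Ttn* lay at -0.13 and -0.25 and *Tnnt2* at -0.29 and -0.13. *Acta1* was at -1.03 in tdTom+ and 0.08 (-0.01 to 0.18) in tdTom- cells, the latter with an interval that includes 0. The other 9 genes lay below 0 in both fractions.

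The inflow-list cells had less *Myl3* than the ventricular-list cells, at 1744 and 2309 CPM against 3025 and 4122 CPM, log2 folds of -0.79 (-0.88 to -0.71) and -0.84 (-0.94 to -0.74). *Acta1* also lay lower, at log2 folds of -0.52 and -1.38. *Myh6* was higher by 0.29 in both fractions, at 1734 and 1848 CPM, and *Myl4* by 0.14 and 0.18. *Tnni3* changed direction between the fractions, at -0.36 (-0.54 to -0.18) in tdTom+ and 0.18 (0.003 to 0.36) in tdTom- cells. *Tnnc1* did so too, at -0.24 (-0.32 to -0.16) and 0.09 (0.003 to 0.19).

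The share of thinned cells with all 10 genes followed these levels. It was 67.3% in tdTom+ and 74.4% in tdTom- ventricular-list cells, 42.9% and 51.9% in inflow-list cells and 14.8% and 20% in outflow-list cells. Between the fractions, the median log2 fold of the 10 genes was -0.15 in the ventricular-list, -0.25 in the inflow-list and -0.24 in the outflow-list group. Some genes did not keep one direction over the groups. *Myl7* was at 0.08 (0.06 to 0.10) in the ventricular-list, -0.14 (-0.18 to -0.11) in the inflow-list and -0.11 (-0.15 to -0.08) in the outflow-list group, and *Tnnt2* and *Myh6* also changed sign, with intervals that included 0 where the value was positive. *Acta1* and *Tnni3* differed more between groups. *Acta1* was at 722 and 2261 CPM in the outflow-list group, a log2 fold of -1.65 (-1.79 to -1.51), at -0.53 in the ventricular-list group and at 0.33 (0.14 to 0.52) in the inflow-list group. *Tnni3* was at -0.88 (-1.11 to -0.66) in the inflow-list group, -0.34 in the ventricular-list group and 0.71 (0.11 to 1.34) in the outflow-list group, the last from 84 and 33 UMIs.

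**Figure D4:**
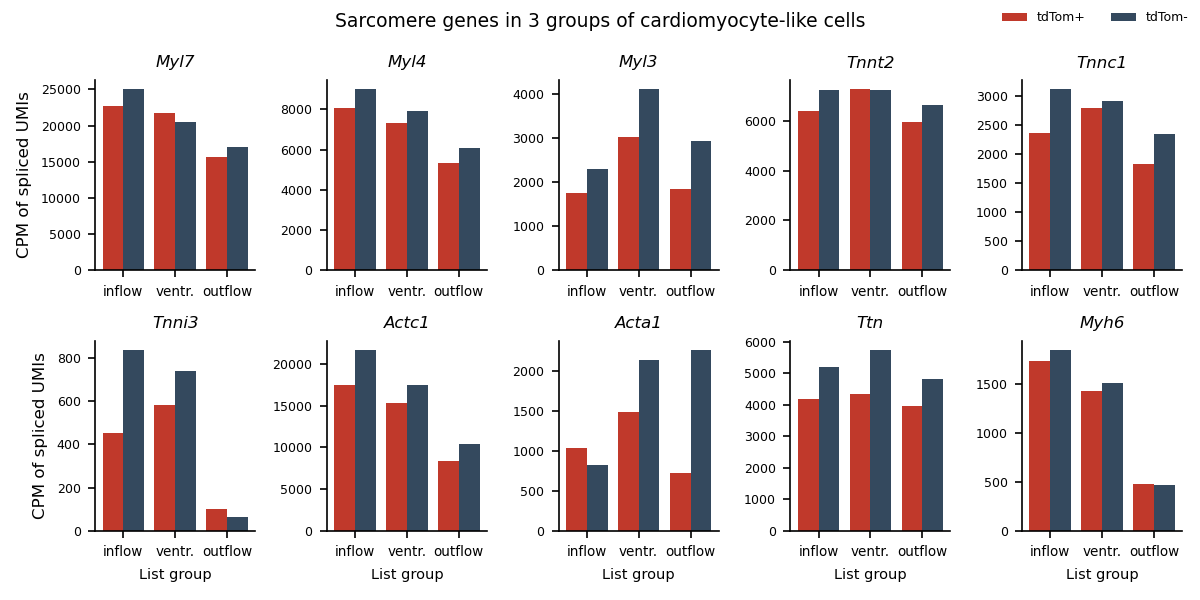
CPM of spliced UMIs of each sarcomere gene (panels, each with its own axis from 0) in the inflow-list, ventricular-list and outflow-list groups of cardiomyocyte-like cells, tdTom+ and tdTom- as bars without error bars, since each is 1 library. *Tnni3* and *Myh6* are lowest in the outflow-list group of both fractions, and *Myl3* is highest in the ventricular-list group.

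The genes differed in the bins where they passed a set share of their own level in bin 8, along a ranking of all cells of the 3 clusters. Cells were ranked by the summed share of the wider sarcomere list, which holds none of the 10 genes, and cut into 8 bins, of which bin 1 is lowest. The ranking largely follows the clusters, since cardiomyocyte-like cells made up 0% of bins 1 to 4 in both fractions, 9.09% (tdTom+) and 5.88% (tdTom-) of bin 5, 84.0% and 72.3% of bin 6, and 97.6% or more of bins 7 and 8. In bin 1 *Tnnt2* was already at 116 (tdTom+) and 148 CPM (tdTom-), *Myl7* at 69.9 and 156 CPM and *Myl4* at 72.6 and 67.5 CPM. *Acta1*, *Tnni3*, *Myl3* and *Myh6* were at or below 2.69 CPM there, and in neural-like cells, given below, they were at or below 3.78 CPM.

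By bin 4, *Tnnt2*, *Myl4*, *Myl7* and *Ttn* had passed 5% of their level in bin 8 in both fractions, and in tdTom+ cells *Myl4* did so in bin 3. *Tnnc1* passed it in bin 4 in tdTom+ and bin 5 in tdTom- cells, *Actc1* and *Myh6* in bin 5, *Myl3* in bin 5 and bin 6, and *Tnni3* and *Acta1* in bin 6. In bin 4 *Tnnt2* stood at 14.4% and 9.57% of its bin 8 level, while *Acta1* stood at 0.184% and 0.611%. *Actc1* was just below the 5% mark there, at 4.33% and 4.65%, close to *Ttn* at 5.91% and 5.84%. *Myh6* was at 1.44% and 1.06% in that bin. These marks depend on each gene's own bin 8 level and do not give its first presence. *Actc1* was at 178 and 169 CPM in bin 3 already, against 11.9 and 9.38 CPM in neural-like cells. The 50% mark was passed in bin 6 by *Myl7*, *Myl4*, *Tnnt2*, *Tnnc1* and *Ttn*, in bin 7 by *Myl3*, *Tnni3*, *Actc1* and *Myh6*, and in bin 8 by *Acta1*, in both fractions.

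The cardiomyocyte-like cells of the fractions were placed differently on this scale. Bin 8 held 26.7% of the tdTom+ and 46.5% of the tdTom- cardiomyocyte-like cells, and bins 6 and 7 held 30.6% and 38.8% against 23.6% and 28.5%. Within a bin, cells of all 3 clusters included, the median log2 fold of the genes measured was -0.34 in bin 1, 0.29 in bin 2, 0.22 in bin 3, 0.15 in bin 4 and 0.01 in bin 5, from 3 to 9 genes. Over all 10 genes it was -0.13 in bin 6, -0.041 in bin 7 and -0.070 in bin 8. *Myl3* was at -0.36 (-0.42 to -0.30), *Acta1* at -0.30 (-0.38 to -0.22) and *Ttn* at -0.26 (-0.31 to -0.21) in bin 8. In bin 7 the same genes were at -0.19, -0.45 and -0.14. In bin 5 *Myl3* was at 0.69 (0.39 to 1.00), *Acta1* at 1.11 (0.28 to 2.04) from 86 and 14 UMIs, and *Ttn* at -0.37 (-0.49 to -0.25). The ranking list moves with the 10 genes in these cells, so the scale is not independent of the fold that it is set beside.

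**Figure D5:**
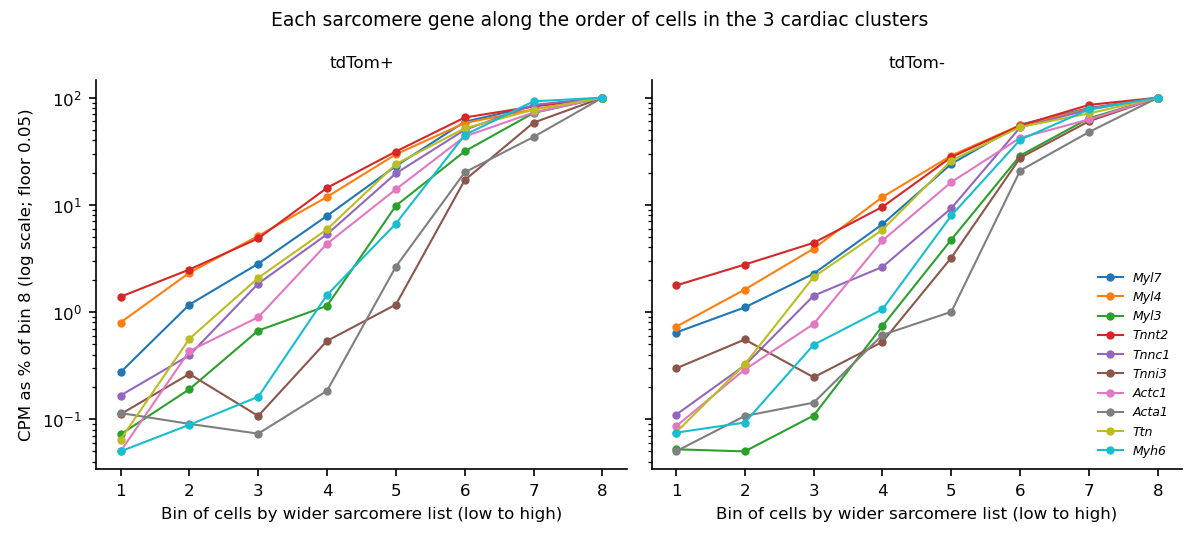
Level of each sarcomere gene as percent of its CPM in bin 8 (y axis, log scale, values below 0.05 drawn at 0.05) over 8 bins of cells ranked by the wider sarcomere list (x axis), tdTom+ left and tdTom- right. *Tnnt2* and *Myl4* lie on top in the low bins, and *Acta1* passes 50% in bin 8 alone.

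In the *Sfrp5* cluster the sum of the 10 genes was close in the fractions, at 7401 (tdTom+) and 7521 CPM (tdTom-), a log2 fold of -0.02 (-0.05 to 0.00). Single genes differed. *Myl3* was at 35.3 and 14.3 CPM from 115 and 34 UMIs, a log2 fold of 1.30 (0.74 to 1.90). *Tnnc1* was at 0.53 (290 and 200 CPM) and *Tnnt2* at 0.36 (1348 and 1048 CPM), whereas *Actc1* was at -0.42 (1256 and 1677 CPM) and *Ttn* at -0.35 (466 and 592 CPM). Of the 8 genes with 100 UMIs there, *Myl3* alone was past 2-fold, higher in tdTom+, against 0.738% of 5693 genes lower and 0.211% higher by that much. The atrial and inflow list had 6 measured genes there, of which *Nr2f1* was past 2-fold lower in tdTom+ cells (-1.01, -1.25 to -0.78), *Nr2f2* was at -0.75 and *Vsnl1* at -0.47, with a list median of -0.38, and its part in the sarcomere values was not tested. Erythroid markers summed to 149.98 CPM in its tdTom+ and 1026 CPM in its tdTom- cells, and their part was not tested. Cells were spread widely, since *Myl7* ran from 0 over a median of 723 to 19983 CPM in tdTom+ and from 0 over 506 to 18894 CPM in tdTom- cells.

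In the *Lefty2* cluster the sum was higher in tdTom+ cells, at 3762 against 2057 CPM, a log2 fold of 0.87 (0.81 to 0.93). *Myl7* was at 1369 and 700 CPM, *Myl4* at 694 and 353 CPM, *Actc1* at 433 and 190 CPM and *Tnnc1* at 126 and 59.2 CPM. Of 7 genes with 100 UMIs there, *Actc1* (1.19, 1.00 to 1.38) and *Tnnc1* (1.09, 0.75 to 1.45) were past 2-fold, both higher in tdTom+, against 0.611% of 5240 genes lower and 0.458% higher. Of the wider sarcomere list, 19 genes had 100 UMIs there, 1 was past 2-fold, higher in tdTom+, and the median log2 fold was 0.38, against -0.03 over all genes tested. That gene, *Ankrd1*, the cardiac ankyrin repeat gene, was at 66.9 and 6.27 CPM and the transcription factor gene *Tbx20* at 27.6 and 10.5 CPM. In the other direction, *Wnt2* was at a log2 fold of -1.07 (-1.40 to -0.74) from 163 and 151 UMIs, *Hand1* at -0.34 and *Smarcd3* at -0.36, and the median of the transcription factor list was 0.17. Erythroid markers summed to 247 CPM in its tdTom+ and 738 CPM in its tdTom- cells, and their part was not tested. The sarcomere UMIs were concentrated in few cells, since the 5 cells with most *Myl7* held 24.2% of it in tdTom+ and 40.1% in tdTom- cells. At a finer resolution a cluster of 289 cells, all of them from this one, gave a log2 fold of 0.89. At a coarser resolution no separate cluster was left, and a merged cluster of 649 cells, 45.1% from the *Lefty2* and 53.0% from the *Sfrp5* cluster, gave -0.02. With the sarcomere genes kept for clustering most cells of both again fell into 1 cluster, of 607 cells, which gave 0.26.

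The unspliced layer set *Myh6*, *Ttn* and *Tnnc1* apart from the other genes. In cardiomyocyte-like cells the unspliced share of a gene's UMIs was 22.4% (21.3 to 23.5) and 22.6% (21.3 to 23.9) for *Myh6* and 18.2% (17.6 to 18.8) and 14.8% (14.2 to 15.3) for *Ttn*, in tdTom+ and tdTom- cells. For *Tnnc1* it was 11.6% in tdTom+ cells and had an interval of 10.3% to 11.7% in tdTom- cells. It was 2.27% and 2.07% for *Myl4*, 1.75% and 1.61% for *Myl3*, 0.937% and 0.878% for *Tnnt2*, and between 0.191% and 0.728% for *Tnni3*, *Myl7*, *Acta1* and *Actc1*. Over all genes it was 13.1% and 13.8% in these cells. Spliced and unspliced UMIs together came to between 87.0% (*Tnnc1*) and 136% (*Myh6*) of the gene's count from Cell Ranger.

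For *Myh6* and *Ttn* the share was higher in the clusters with less of their spliced RNA. *Myh6* was 52.1% (47.2 to 57.0) unspliced in tdTom+ and 47.8% (42.5 to 53.1) in tdTom- cells of the *Sfrp5* cluster, and 59.7% (47.0 to 71.5) in the tdTom+ *Lefty2* cluster, from 67 UMIs in all. *Ttn* was 28.8% and 21.7% unspliced in the *Sfrp5* cluster and 30.0% and 19.8% in the *Lefty2* cluster. In all 3 clusters the *Ttn* share was higher in tdTom+ cells, and in the *Sfrp5* and *Lefty2* clusters as in the cardiomyocyte-like one the intervals of the fractions did not overlap. Counting error is the sole error in these intervals.

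In neural-like cells, taken as the type that should lack these genes, sarcomere UMIs were few. RNA free in the suspension was not measured in empty droplets, and its part was not tested. In the 960 tdTom+ and 1581 tdTom- neural-like cells the 10 genes summed to 57.4 and 46.7 CPM, which is 0.0947% (0.0887 to 0.101) and 0.0691% (0.0652 to 0.0732) of the cardiomyocyte-like level of the same library. At least 1 such UMI was seen in 60% and 45.0% of neural-like cells without thinning. *Myl7* made up 29.0% and 28.4% of these UMIs, against 33.8% and 30.3% in cardiomyocyte-like cells, and *Actc1* 20.8% and 20.1% against 23.3% and 24.5%. *Tnni3* was the gene furthest above this ratio, at 0.285% and 0.221% of its cardiomyocyte-like level, and it made up 2.22% and 2.87% of these UMIs against 0.739% and 0.895%. *Tnnc1* made up 7.84% and 5.39% against 4.11% and 4.19%, and *Acta1* 3.71% and 3.39% against 2.01% and 2.88%. A single tdTom- neural-like cell held 99 of the 1151 UMIs, and 0.127% of the tdTom- neural-like cells had a UMI of at least 8 genes without thinning.

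Outside the 3 clusters the median over 53 groups of at least 50 cells was 19.3 CPM for *Myl7*, 11.8 CPM for *Actc1*, 8.95 CPM for *Myl4*, 6.55 CPM for *Tnnt2* and 1.10 CPM for *Tnni3*, close to the neural-like levels. The highest group for *Actc1* (263 CPM), *Myl4* (92.8 CPM), *Tnnc1* (77.3 CPM) and *Tnni3* (15.5 CPM) was 56 tdTom- cells of an unnamed cluster led by *AY036118*. Cells of that cluster had a median of 1057 spliced UMIs, so these values rest on few UMIs. Some genes departed from the neural-like levels in clusters where others did not. *Tnnt2* was at 188 and 177 CPM in the extraembryonic mesenchyme-like cluster led by *Tdo2*, and at 185 and 232 CPM in the one led by *Postn*. Between 71.2% and 91.0% of cells there had a *Tnnt2* UMI, and the level was 27.4 to 50.6 times that in neural-like cells of the same library. *Actc1* (27.7 to 112 CPM) and *Tnnc1* (20.3 to 66.1 CPM) were raised with it, whereas neither *Tnni3* nor *Acta1* reached 20 UMIs and 2 times the neural-like level there. In the cluster led by *Postn*, 5 cells held 35.2% and 46.5% of the *Actc1* UMIs. *Ttn* was at 12.3 and 13.9 CPM in that cluster, with 92.9% and 100% of its UMIs in 5 cells. *Myl7* was at 64.0 and 55.0 CPM in the cluster led by *Tdo2*.

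*Myl3* stood out in the gut endoderm-like cluster led by *Nepn*, at 126 (tdTom+) and 124 CPM (tdTom-), with a UMI in 71.9% and 68.3% of cells. *Tnnc1* was at 53.8 and 41.8 CPM in the same cells. The genes on the opposite strand were also present there, *Pth1r* at 57.3 and 45.1 CPM and *Nisch* at 114 and 133 CPM. In cardiomyocyte-like cells *Pth1r* was at 92.7 and 97.4 CPM. In 20 tdTom- cells of an unnamed cluster led by *Srgn* and *Col4a1*, *Myl3* was at 225 CPM beside 2862 CPM of *Pth1r*, and their reads were not told apart here.

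*Actc1* was at 123 CPM in tdTom+ cells of an allantois-like cluster led by *Nxf7* and at 154 CPM in tdTom- cells of one led by *Cdkn1c*. Each of these clusters held at least 50 cells of 1 fraction alone, so the fractions were not compared in them. Both clusters had *Nxf7*, *Plac1*, *Tbx4*, *Pitx1*, *Twist2* and *Vcam1* among their leading genes, and whether they hold the same cell type was not tested. *Myl7* was at 124 and 160 CPM, and *Tnnt2* at 49.3 and 64.1 CPM, in the splanchnic mesoderm-like cluster led by *Lhx1*, with 19.8% and 27.6% of the *Myl7* UMIs in 5 cells. *Acta1* was at 23.4 and 32.8 CPM in a surface ectoderm-like cluster led by *Tac2*, from 45 and 27 UMIs of which 53.3% and 74.1% were in 5 cells.

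In blood cells, whose red lineage needs the transcription factor *Gata1*, *Tnni3* and *Myl4* differed most between fractions, but the fractions held different blood cells. The tdTom- cells were mostly erythroid-like (1390), whereas the tdTom+ cells were blood progenitor-like (836 and 495 in 2 clusters) and myeloid-like (286), so that the folds below compare different cell types. In 1619 tdTom+ and 1477 tdTom- blood cells *Tnni3* was at 1.74 and 14.6 CPM. Of the 416 tdTom- UMIs, 403 came from the erythroid-like cluster, at 14.9 CPM with a UMI in 19.6% of its 1390 cells. The top 5 cells held 6.45% of the UMIs, and the level was 11.1 (7.80 to 16.4) times the neural-like level. That cluster held 2 tdTom+ cells, so erythroid-like cells could not be compared between fractions. *Dnaaf3*, which shares the strand and overlaps *Tnni3*, was at 0 UMIs there, as it was in cardiomyocyte-like cells of both fractions. In the myeloid-like cluster, with 286 tdTom+ and 84 tdTom- cells, *Tnni3* was at 0.727 and 8.30 CPM, and the source of this difference was not tested. Both values rest on few UMIs, since in the same cells 16 and 7 UMIs of *Pth1r* came to 2.91 and 4.84 CPM. *Tnni3* was also at 8.19 and 7.37 CPM in the endothelial-like cluster led by *Etv2*, 6.42 and 5.50 times the neural-like level.

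In blood cells *Myl4* was at 9.90 (tdTom+) and 3.79 CPM (tdTom-), a log2 fold of 1.39 (1.07 to 1.71). The neural-like level was 7.60 and 6.38 CPM, so blood cells lay above the neural-like level in tdTom+ and below it in tdTom- cells. Of the tdTom+ UMIs, 177 of 347 were in the blood progenitor-like cluster led by *Myb*, at 15.3 CPM, where 5 cells held 33.9% of them. With called doublets kept the log2 fold was 0.63. The remaining 8 genes had log2 folds between 0.29 and 0.80 in blood cells. All 10 summed to 52.2 and 46.7 CPM there, against 57.4 and 46.7 CPM in neural-like cells. In tdTom- blood cells 416 of the 1331 UMIs in this sum were *Tnni3*, against 33 of 1151 in tdTom- neural-like cells. The equal sums therefore do not mean equal levels of the single genes.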

How the data were processed

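Droplet-based scRNA-Seq libraries of 2 sorted fractions were analysed, with *Gata1*- (tdTom+) and wildtype (tdTom-) cells taken from the labels. Per the labels and the study's methods, the authors aligned reads to mm10 (GRCm38) with Cell Ranger 3.0.2, called cells with emptyDrops, removed low-quality cells and counted spliced and unspliced UMIs with velocyto, and deposited these counts per gene and cell without normalization. In each fraction the deposited counts cover more barcodes than the cells that the paper reports after quality control and cell type assignment. The deposited cell metrics gave the mitochondrial percent of each cell, computed by the authors from Cell Ranger counts. All values in the spliced and unspliced tables were whole, and 6 cells of the metrics had no row in them.

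Cells were clustered with scanpy 1.11.5 and igraph 0.11.9 (1841 variable genes, 50 principal components, 20 neighbours, Leiden resolution 1.5) in Python 3.11.15 with NumPy 2.4.6, SciPy 1.17.1 and pandas 2.3.3, without the 10 genes and the wider list. Scrublet called 395 tdTom+ and 565 tdTom- doublets, which were left out with 1 cluster in which 94.0% of cells were called. They held 8.27% and 6.08% of the sarcomere UMIs. A class was named from at least 3 markers that were 2-fold higher than in the rest with 10 CPM added. Levels (CPM) are a gene's summed spliced UMIs scaled to all spliced UMIs of the same cells, folds of single libraries carry exact conditional intervals, and shares carry exact (Clopper-Pearson) intervals, at 95%, for counting error only. A gene was counted for folds from 100 UMIs in a class. No test or p-value was possible, with 1 library a fraction. Code for the intervals was also tested on simulated counts.

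The 10 genes, the wider lists and the marker lists were chosen with earlier results of these data known. Named were the 10 genes, the 3 genes of each wider list with the largest log2 fold and the 10 genes most alike in pattern. The chamber groups, *Nppa*, *Hand1*, *Nr2f1*, *Nr2f2*, *Vsnl1*, the genes named for blood cells and other clusters, and *Ankrd1*, *Tbx20*, *Wnt2* and *Smarcd3* in the *Lefty2* cluster were named after their values were seen. The alternatives tried were other resolutions, doublets or sarcomere genes kept, other depths, denominators and averages. Counting tools of the authors may assign reads of overlapping or near-identical genes differently.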

Additional observations from a re-analysis of the deposited data

Results flagged for a closer look

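Several genes had folds of opposite sign in cardiomyocyte-like cells and in a neighbouring cluster, all between single libraries, and the difference between clusters was not tested. In the *Lefty2* cluster the log2 folds of tdTom+ over tdTom- were 0.97 for *Myl4*, 0.95 for *Myl3*, 0.72 for *Tnnt2*, 1.09 for *Tnnc1*, 1.19 for *Actc1*, 0.26 for *Ttn* and 1.57 for *Myh6*, whereas each of these genes was below 0 in cardiomyocyte-like cells. The *Myh6* value rests on 27 and 4 UMIs. In the *Sfrp5* cluster the same held for *Myl3* at 1.30, *Tnnt2* at 0.36 and *Tnnc1* at 0.53. Cells of the *Lefty2* cluster with most *Actc1* carried much of it, since 5 cells held 40.3% of its UMIs in tdTom+ and 55.5% in tdTom- cells.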

How the results depend on the processing

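Of 100 single-gene folds in all cardiomyocyte-like cells under the alternatives, chamber groups and bins not counted, 82 moved by less than the counting interval and 18 by more, none passed 2-fold, and 96 were below 0, within a range of -0.75 to 0.014. *Myl7*, whose interval includes 0, lay on either side of it, from -0.035 with doublets kept to 0.014 with unspliced UMIs added. Their median was -0.24 when cells were thinned, and, in alternatives chosen after seeing the data, -0.15 in the ventricular-list group, -0.25 in the inflow-list group, -0.041 in bin 7 and -0.070 in bin 8. With the sarcomere genes kept for clustering, cardiomyocyte-like cells were 2.87% of tdTom+ cells, and 87.5% of tdTom+ and 92.1% of tdTom- cells held at least 8 genes. Asking for 2 UMIs a gene gave 87.9% in tdTom+ cells. The neural-like level in tdTom+ cells was 0.102% of the cardiomyocyte-like level with doublets kept, 0.103% with the sarcomere genes kept for clustering and 0.0854% with sarcomere, globin and mitochondrial genes out of the denominator. In tdTom- cells it was 0.0736% with doublets kept and 0.0614% with that denominator. The *Myl4* fold in blood cells was 0.63 with doublets kept. The summed fold in the *Sfrp5* cluster was -0.077 with doublets kept, in a cluster of 525 cells of which 64.8% were the same cells, -0.054 at resolution 2 and 0.074 without the 5 cells highest in each fraction. In the *Lefty2* cluster it was 1.06 without the 5 highest cells. At resolution 1 both clusters merge into 649 cells, 45.1% of them from the *Lefty2* cluster, and that mixed set gave -0.021. With the sarcomere genes kept for clustering most cells of both clusters fell into 1 cluster of 607 cells, so that 0.26 is a single value for both. Depth limits *Tnni3* and *Acta1*, which had fewer than 100 UMIs in the *Sfrp5* and *Lefty2* clusters, and *Myh6* in the *Lefty2* cluster. No paired analysis was possible because each fraction is a single library. No replicate could be left out for the same reason.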
